A study of Mus musculus with 56 samples.

Results

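Splenic CD4 T cells cultured for 72 h after activation at a high starting concentration were compared with cells cultured for the same time at a low one. The comparison uses 5 of the 56 libraries of the series. They were chosen by their labels alone: 3 libraries started at 1000000 cells per ml (called high cultures) and 2 libraries started at 62500 cells per ml (called low cultures), a 16-fold difference in starting concentration. Both groups came from C57BL/6 spleen, were activated with beads carrying antibodies against CD3 and CD28 in complete RPMI, received no added cytokine, and were sorted as CD4 positive cells into lysis buffer without a further sort on CD62L. The labels give neither the age or sex of the mice nor whether the libraries of a group came from separate mice or cultures. The p-values therefore speak only of the spread among libraries within groups, which may be technical. That spread was estimated over all 38 libraries (13 groups) of the experiment, not from these 5 alone. The titles of the series name its subject as collective behaviour of cells in early memory differentiation. Other groups of the same experiment are used here for contrast: high and low cultures at 18, 30 and 48 h, naive cells, and cells from cultures started at 250000 cells per ml that were sorted by CD62L at 72 h. Titles also carry a second number that no label explains. At 72 h all 3 high libraries have number 1 and both low libraries have number 2, so concentration and this number cannot be told apart within 72 h.

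Activated CD4 T cells divide rapidly and change their metabolism towards glucose uptake and glycolysis. In a dense culture they also share a medium in which oxygen and nutrients are drawn down and secreted cytokines build up. Low oxygen stabilises hypoxia-inducible factors, which bind a short core sequence near genes of glucose transport, glycolysis and oxygen sensing. Interleukin 2 signals through STAT5 to drive growth and division, and S1pr1 and Klf2 mark cells able to recirculate through lymph nodes. These statements are background and not results.

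The libraries held 1313854, 1190774 and 1085886 counts in high cultures and 1517530 and 1631141 counts in low cultures. Ribosomal protein genes took 32.7 to 34.5% of the counts in high cultures and 25.3 to 25.6% in low cultures, and scaling without these genes gave 2455 calls at 72 h, against the 2447 given next. Across genes, the correlation of log2(CPM + 1) was 0.95 to 0.975 between libraries of the same group and 0.890 to 0.910 between groups, a description in which genes are not independent replicates. CPM here means counts per 1000000 after TMM scaling, and a log2 difference is high minus low from edgeR's quasi-likelihood fit over the 38 libraries of the experiment. These are bulk libraries, so fewer cells of a type and less RNA per cell cannot be told apart.

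Of 9239 genes tested, 2447 (26.5%) differed at an adjusted p under 0.05, of which 1197 (13%) were higher and 1250 (13.5%) lower in high cultures. Among these, 794 (8.59%) were higher by at least 1 on the log2 scale and 507 (5.49%) were lower by at least as much. The groups did not overlap for 2498 genes that were higher (27%) and 2593 that were lower (28.1%) in high cultures. The median log2 difference over all genes tested was 0.01. Calls therefore ran in both directions in near equal number, and more of the rises than of the falls reached 1 on the log2 scale. The rises and falls of each list below are to be read against the 13% and 13.5% over all genes. Those of several lists lie near these shares.

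**Figure D1:**
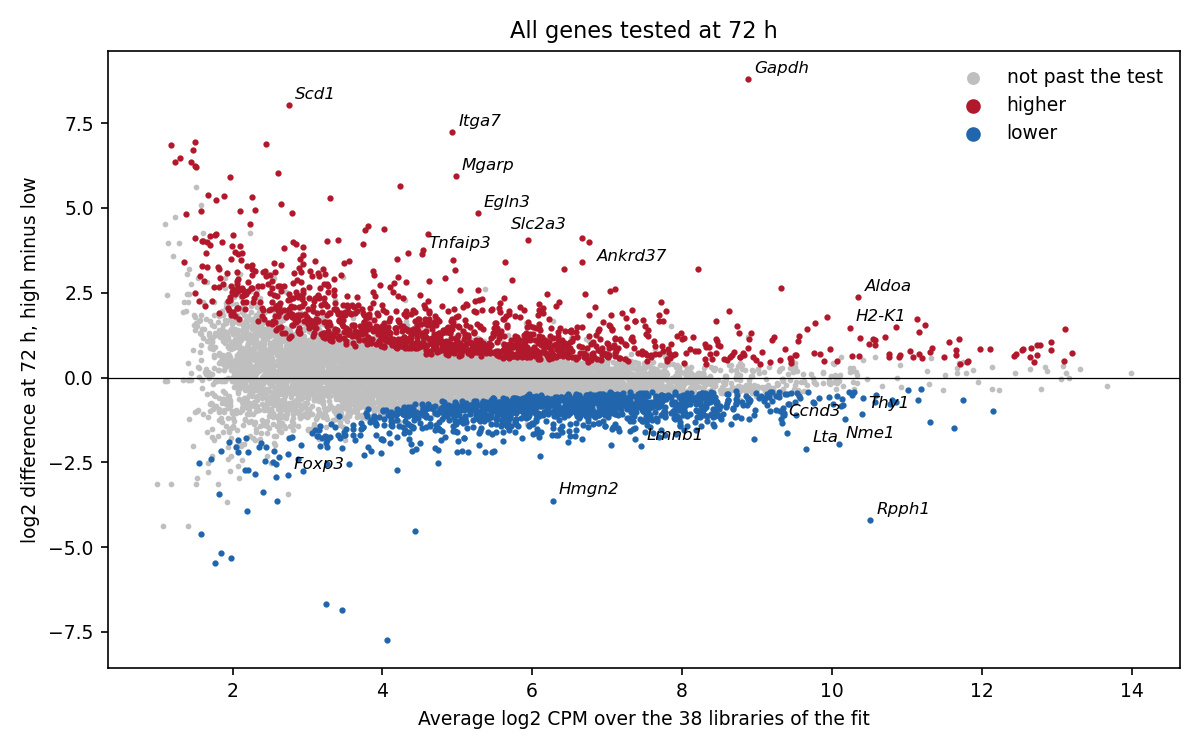
Each point is 1 of the 9239 genes tested; the x axis is the average log2 CPM over the 38 libraries of the fit and the y axis the log2 difference at 72 h, high minus low. Red points were higher (1197 genes), blue points lower (1250 genes) and grey points did not pass; fitted values of genes with very few counts in 1 group, such as Scd1, depend on the prior count.

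The second title number was measured in the 4 groups that hold libraries of both numbers, 12 libraries in all. As a term in the fit it was called for 45 genes (0.487%), and for 1 gene when those 12 libraries were fitted alone; its unadjusted p was under 0.05 for 1079 genes (11.7%). Of the 45 genes, 16 were also called between high and low cultures at 72 h. With the number as a term, 1531 genes were called at 72 h (728 higher, 803 lower), including 1415 of the 2447 genes called without it (57.8%), and each of the 2447 kept its direction. The 30 genes named below for their size, 15 that rose and 15 that fell, were all called with the term, and none was among the 45. Their choice by large differences in these same libraries, and the small number called for the term, made both outcomes likely. Neither outcome therefore measures how the number affects these genes. Leaving out either low library also reduced the count, to 1421 without replicate 1 and 1442 without replicate 2; the lone low library was then assumed to vary like the other groups.

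Genes that respond to low oxygen were higher in high cultures. Of 19 hypoxia-response genes tested, 16 rose and none fell, with a median log2 difference of 2.47 against 0.01 over all genes. The count was 16 with the second title number as a term and 16 without either low library. Egln3, a prolyl hydroxylase that marks hypoxia-inducible factors for destruction and is itself their target, had 127, 158 and 139 CPM in high cultures, against 5.63 and 4.13 CPM in low cultures. The high libraries lay far above both low libraries, and the log2 difference was 4.84 ± 0.30 (SE; adjusted p = 1.1e-17). Ankrd37, an ankyrin-repeat gene known as a target of the same factors, had 387, 463 and 397 CPM in high cultures, against 23.8 and 28.3 CPM in low cultures. Its log2 difference was 3.99 ± 0.26 (adjusted p = 1.6e-17), and the groups again did not overlap. P4ha2, a collagen prolyl hydroxylase subunit, had 103, 109 and 79.5 CPM in high cultures, against 8.13 and 7.08 CPM in low cultures and rose by 3.67 on the log2 scale.

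The promoters of these 3 genes are shown because their transcripts moved together and each window holds the core sequence of hypoxia response. Sequences are from RefSeq (build GRCm38.p6), 5′ to 3′, from 250 bases before to 50 after the annotated start; capitals mark ACGTG or GCGTG on either strand, and the reverse-strand match reads CACGT or CACGC. They lie at chr12:54203825-54204124, minus strand (Egln3), chr8:45999801-46000100, minus strand (Ankrd37) and chr11:54100674-54100973, plus strand (P4ha2).
Egln3: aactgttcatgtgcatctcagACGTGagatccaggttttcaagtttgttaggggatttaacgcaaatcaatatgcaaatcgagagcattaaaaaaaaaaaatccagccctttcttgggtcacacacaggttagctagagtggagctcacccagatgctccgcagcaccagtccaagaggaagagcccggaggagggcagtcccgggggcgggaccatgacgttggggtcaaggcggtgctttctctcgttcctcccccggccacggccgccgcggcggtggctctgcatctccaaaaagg
Ankrd37: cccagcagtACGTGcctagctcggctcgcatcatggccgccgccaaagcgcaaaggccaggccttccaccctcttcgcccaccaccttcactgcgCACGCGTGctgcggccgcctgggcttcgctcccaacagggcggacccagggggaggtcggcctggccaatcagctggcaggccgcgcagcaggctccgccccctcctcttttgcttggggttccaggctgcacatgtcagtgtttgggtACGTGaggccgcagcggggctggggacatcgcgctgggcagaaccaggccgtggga
P4ha2: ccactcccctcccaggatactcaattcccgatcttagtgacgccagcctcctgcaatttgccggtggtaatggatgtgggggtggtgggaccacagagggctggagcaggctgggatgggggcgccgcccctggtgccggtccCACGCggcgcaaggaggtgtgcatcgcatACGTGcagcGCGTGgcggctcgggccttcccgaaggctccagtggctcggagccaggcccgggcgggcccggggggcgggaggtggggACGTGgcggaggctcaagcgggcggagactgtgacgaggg
The Egln3 window holds 1 match, 229 bases before the start, and the windows of Ankrd37 and P4ha2 hold 4 each. In Ankrd37 the matches that begin 155 and 152 bases before the start overlap. In P4ha2 no matches overlap, and the last begins after the start. Of the 19 hypoxia genes tested, 15 had a promoter in the table and 15 of these held the core. Among all genes tested, 7098 had a promoter in the table and 4998 of these held it (70.4%). The core is short and common, and a match describes letters in the window, not a site in use.

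Other hypoxia-response genes followed the same pattern. Ndrg1, a stress-response gene, had 408, 498 and 426 CPM in high cultures, against 38.8 and 44.2 CPM in low cultures, and Bnip3, a mitophagy receptor of the outer mitochondrial membrane, had 249.6, 217 and 199.8 CPM in high cultures, against 11.3 and 15.3 CPM in low cultures. Their log2 differences were 3.42 ± 0.22 and 4.05 ± 0.39 (SE). Hilpda, which protects lipid droplets from breakdown, had 156, 222 and 164 CPM in high cultures, against 32.5 and 32.4 CPM in low cultures. Bhlhe40, a transcription factor of effector T cells, had 97.8, 109 and 73.1 CPM in high cultures, against 10.01 and 15.3 CPM in low cultures, so its lowest high library lay well above its highest low library. Mgarp, a mitochondrial protein outside the hypoxia list, had 169.8, 176 and 169 CPM in high cultures, against 1.25 and 4.13 CPM in low cultures and rose by 5.94 on the log2 scale (adjusted p = 1.8e-15).

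Glucose uptake and glycolysis rose with them. Of 15 glycolysis genes tested, 13 rose and none fell (median 1.52), and the count was 13 with the second title number as a term and 10 without either low library. Slc2a3, the glucose transporter GLUT3, had 394, 599.8 and 502 CPM in high cultures, against 23.8 and 33.03 CPM in low cultures. Its log2 difference was 4.13 ± 0.23 (adjusted p = 1.6e-19), with no overlap between groups. Slc2a1, the transporter GLUT1, had 194, 242 and 224 CPM in high cultures, against 38.2 and 41.9 CPM in low cultures, and Slc16a3, which exports lactate, had 291, 331 and 353 CPM in high cultures, against 54.4 and 52.5 CPM in low cultures. With these, 3 of 5 glucose and lactate transporters tested rose and none fell. Aldoa, the aldolase that splits fructose bisphosphate, had 3458, 2934 and 3401 CPM in high cultures, against 544 and 709.6 CPM in low cultures, a log2 difference of 2.38 ± 0.17 (adjusted p = 5.4e-16). Pgk1, phosphoglycerate kinase, had 128, 71.4 and 117 CPM in high cultures, against 14.4 and 12.98 CPM in low cultures. Gpi1 and Tpi1, isomerases of the same pathway, rose by 1.52 and 1.42 on the log2 scale. Hk2, the inducible hexokinase, had 22.7, 32.7 and 27.7 CPM in high cultures, against 5.00 and 3.54 CPM in low cultures. Pdk1, which inhibits pyruvate dehydrogenase and so limits entry of pyruvate into mitochondria, had 46.9, 50.8 and 47.2 CPM in high cultures, against 11.3 and 7.08 CPM in low cultures.

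Some glycolysis genes could not be read reliably from these counts. Gapdh had 2727, 1492 and 2015 CPM in high cultures, against 4.38 and 4.72 CPM in low cultures, and its fitted difference of 8.81 ± 2.86 (SE) no longer passed without either low library. Gapdh has many near-identical pseudogenes, so how its reads were assigned is uncertain. Eno1 was at 0 counts in all 5 libraries and Pgam1 had 2 to 7 counts in each, and neither was tested.

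**Figure D2:**
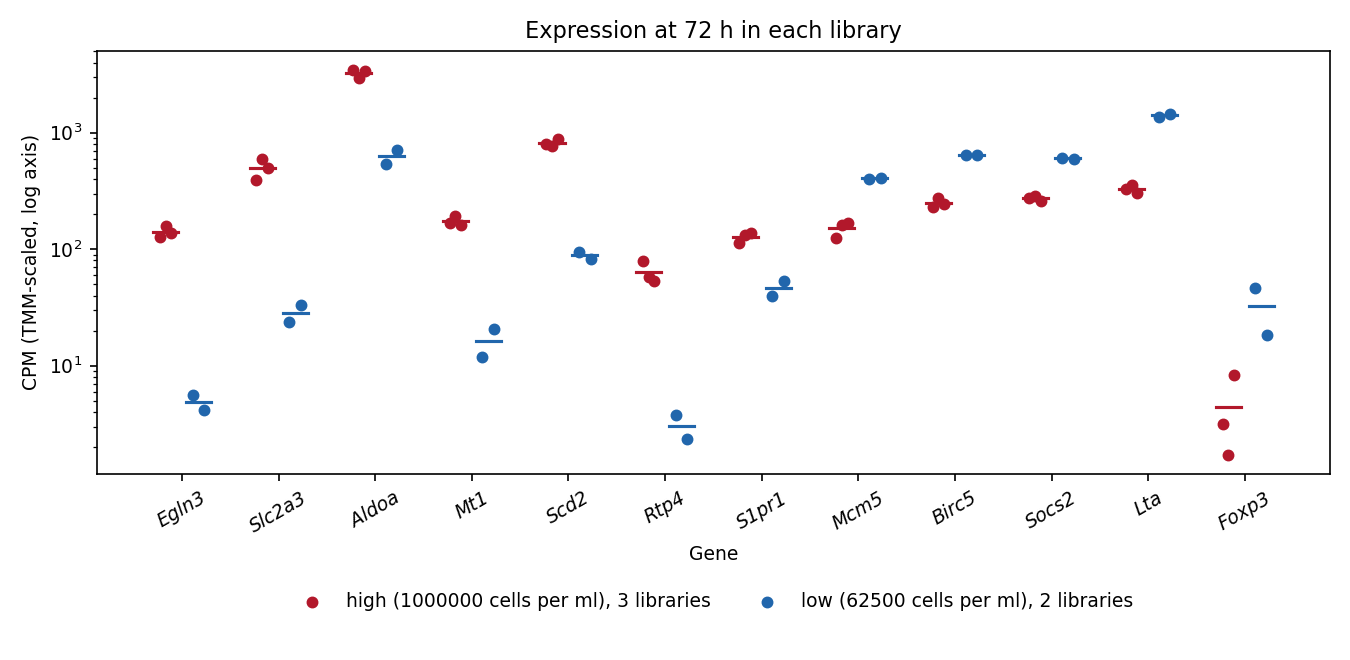
CPM (TMM-scaled, log axis) of 12 genes at 72 h; red points are the 3 high libraries, blue points the 2 low libraries, and bars their means. For Egln3 to S1pr1 every high library lies above both low libraries, and for Mcm5 to Foxp3 every high library lies below both.

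Of 20 cholesterol synthesis genes tested, 15 rose and 1 fell (median 1.39), and of 13 fatty acid synthesis genes 8 rose and 1 fell (median 0.76); neither fall was called without low replicate 1, low replicate 2 or high replicate 3. Fdps, which makes farnesyl diphosphate, had 497, 509 and 476 CPM in high cultures, against 133 and 119 CPM in low cultures. Hmgcs1, which acts just before the rate-limiting reductase, had 397, 474 and 338 CPM in high cultures, against 132 and 122 CPM in low cultures. Both had no overlap between groups, with log2 differences of 1.98 ± 0.17 and 1.67 ± 0.17 (SE). Scd2, a desaturase that makes monounsaturated fatty acids, had 798, 775 and 876 CPM in high cultures, against 95.1 and 83.2 CPM in low cultures and rose by 3.19. Scd1, a related desaturase, had 71 counts over the high libraries and 0 over the low libraries, at least 20.8-fold higher when 3 counts over the group are taken as the floor. Lpin1, a phosphatidate phosphatase, had 95.5, 114 and 130.4 CPM in high cultures, against 7.50 and 17.1 CPM in low cultures. The rise in fatty acid genes depended on the libraries kept, with 4 of 13 called without low replicate 1 and 5 without low replicate 2. The metallothioneins, which bind zinc and other metals, rose: Mt1 had 169, 194 and 163 CPM in high cultures, against 11.9 and 20.6 CPM in low cultures and Mt2 had 62.6, 101 and 77.7 CPM in high cultures, against 1.25 and 1.77 CPM in low cultures. With the zinc transporter Slc30a4 they were the 3 of 10 metal and zinc genes that rose, and none fell.

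Calls among mitochondrial and nucleotide synthesis genes were nearly all lower. Of 29 oxidative phosphorylation genes tested, 17 fell and 1 rose (median -0.56); 10 fell without low replicate 2 and 10 with the second title number as a term. Sdhb, the iron-sulphur subunit of complex II, had 328, 362 and 376 CPM in high cultures, against 822 and 696 CPM in low cultures, a log2 difference of -1.09 ± 0.14 (adjusted p = 2.5e-08). Atp5b, the catalytic subunit of ATP synthase, had 1412, 1268 and 1431 CPM in high cultures, against 2191 and 2132 CPM in low cultures. In the TCA cycle 5 of 16 genes fell and none rose (median -0.25), with 3 falls without low replicate 2. Mdh2, mitochondrial malate dehydrogenase, had 354, 408 and 336 CPM in high cultures, against 529.7 and 583 CPM in low cultures. Of 18 polyamine and nucleotide synthesis genes 8 fell and none rose (median -0.97). Cad, which starts pyrimidine synthesis, had 36.8, 37.9 and 43.5 CPM in high cultures, against 128 and 107 CPM in low cultures, and Srm, spermidine synthase, had 127, 139 and 123 CPM in high cultures, against 275 and 285 CPM in low cultures. Nme1, a nucleoside diphosphate kinase, had 279, 335 and 278 CPM in high cultures, against 1126 and 1179.8 CPM in low cultures, and was among the 15 largest falls at -1.95 ± 0.14 (adjusted p = 1.1e-15).

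Part of the ribosome assembly list was lower. Of 29 ribosome biogenesis genes 12 fell and 1 rose (median -0.59), with 7 falls without low replicate 1 or without high replicate 1 and 6 with the second title number as a term. Bop1, a ribosome assembly factor, had 53.2, 49.9 and 51.8 CPM in high cultures, against 141 and 158 CPM in low cultures, and fell by 1.53 on the log2 scale. Of 19 tRNA synthetases 8 fell and 1 rose (median -0.38), and 4 fell without low replicate 1, 5 without high replicate 1 and 4 with the second title number as a term. Myc, the growth-promoting transcription factor, had 136, 238 and 151 CPM in high cultures, against 88.2 and 64.3 CPM in low cultures and rose by 1.20 ± 0.26 (SE; adjusted p = 4.6e-04). Across Myc and its partners 3 of 8 genes rose and 2 fell, but 1 rose without low replicate 2, and 1 fell with the second title number as a term or without either low library, high replicate 1 or high replicate 3. Mxd3, a Max partner linked to S phase, fell by 1.00. In the amino acid response 6 of 21 genes rose and 3 fell (median 0.32), with 1 fall with the second title number as a term, without low replicate 1 or without high replicate 2. The 3 falls are near the 13.5% over all genes. Ddit3, which encodes the stress factor CHOP, had 121, 135 and 108 CPM in high cultures, against 28.8 and 34.2 CPM in low cultures, and Eif4ebp1, a brake on cap-dependent translation, had 232, 243 and 215 CPM in high cultures, against 73.8 and 73.1 CPM in low cultures. Psph, of serine synthesis, fell by 0.71. Only 2 of the 21 rose without low replicate 2 and 2 with the second title number as a term. Of 17 secretory pathway genes 4 fell and none rose, with 2 falls without low replicate 2 or without high replicate 1. Calr, the chaperone calreticulin, had 289, 294 and 328 CPM in high cultures, against 637 and 664 CPM in low cultures. Of 16 heat shock genes 3 fell and none rose, where 13.5% of all genes fell. Among the falls was Hsph1, with 32.9, 39.6 and 22.2 CPM in high cultures, against 91.3 and 88.5 CPM in low cultures. The fall of Hspa8 (adjusted p = 0.049) was not called in 9 of 12 alternative fits, among them that with the second title number as a term. Of 21 autophagy and lysosome genes 2 rose, among them Ctsl, and none fell, where 13% of all genes rose. The rise of Ctsl was not called with the second title number as a term or without either low library or high replicate 3.

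Nearly all DNA replication genes were lower in high cultures. Of 34 DNA replication genes tested, 31 fell and none rose (median -1.18), with 30 falls when the second title number was a term and 28 and 30 without low replicate 1 and low replicate 2. Rrm1, the large subunit of ribonucleotide reductase, had 110.3, 187 and 115 CPM in high cultures, against 428 and 376 CPM in low cultures, a log2 difference of -1.55 ± 0.16 (adjusted p = 2.2e-10). Mcm5, part of the replicative helicase, had 124, 163 and 169 CPM in high cultures, against 403 and 408 CPM in low cultures. Rfc3, a subunit of the clamp loader, had 43.8, 43.03 and 49.01 CPM in high cultures, against 132 and 117 CPM in low cultures, and Fen1, the flap endonuclease, had 69.6, 61.96 and 73.1 CPM in high cultures, against 177 and 156 CPM in low cultures. For each of these genes every high library lay below both low libraries.

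The promoters of Mcm5 and Rfc3 are shown as examples of windows that hold letters bound by E2F factors, which drive S phase genes. Capitals mark TTTGGCGC, TTTCCCGC or TTTCGCGC on either strand, in RefSeq sequence of GRCm38.p6 at chr8:75109259-75109558, plus strand (Mcm5) and chr5:151651159-151651458, minus strand (Rfc3).
Mcm5: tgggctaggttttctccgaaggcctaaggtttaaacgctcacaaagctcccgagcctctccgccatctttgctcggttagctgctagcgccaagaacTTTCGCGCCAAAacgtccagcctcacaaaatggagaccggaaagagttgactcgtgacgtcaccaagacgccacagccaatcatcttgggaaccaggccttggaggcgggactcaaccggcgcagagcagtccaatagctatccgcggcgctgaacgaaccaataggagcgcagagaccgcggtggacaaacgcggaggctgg
Rfc3: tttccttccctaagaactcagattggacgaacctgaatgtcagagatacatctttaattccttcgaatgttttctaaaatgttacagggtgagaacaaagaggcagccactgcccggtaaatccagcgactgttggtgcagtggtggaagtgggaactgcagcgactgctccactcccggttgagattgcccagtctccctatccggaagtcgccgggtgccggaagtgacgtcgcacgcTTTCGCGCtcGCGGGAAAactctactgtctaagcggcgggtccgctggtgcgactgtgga
Each window holds 2 matches, which overlap in Mcm5. Of 28 replication genes with a promoter in the table, 13 (46.4%) held a match, against 327 of the 7098 genes tested that had a promoter there (4.61%).

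Of 29 mitosis genes 14 fell and none rose (median -0.56), with 9 falls without low replicate 2. Birc5, the survivin gene of the chromosomal passenger complex, had 229, 275 and 246 CPM in high cultures, against 647 and 650.0 CPM in low cultures, and Plk1, a mitotic kinase, had 115, 90.4 and 98.9 CPM in high cultures, against 336 and 265 CPM in low cultures. Cdc20, an activator of the anaphase-promoting complex, fell by 1.47. Among 17 G1 cyclins, their inhibitors and E2F genes 8 fell and 1 rose (median -0.65), with 5 falls without low replicate 1 and no rise without either low library. Ccnd3, cyclin D3, had 620.4, 522 and 637 CPM in high cultures, against 1562 and 1416 CPM in low cultures, and Ccne1, cyclin E1, had 53.2, 37.9 and 36.1 CPM in high cultures, against 130.1 and 145 CPM in low cultures. The inhibitor Cdkn1a also fell and had 59.5, 55.9 and 71.2 CPM in high cultures, against 118 and 152 CPM in low cultures, so the list held falls of both drivers and inhibitors of division. Further genes among the 15 largest falls act in the same processes. Rad54l, of homologous recombination, had 13.3, 9.47 and 13.9 CPM in high cultures, against 53.8 and 55.4 CPM in low cultures. 2810417H13Rik, a PCNA-binding factor, had 14.1, 10.3 and 25.9 CPM in high cultures, against 84.4 and 68.4 CPM in low cultures, and Lmnb1, lamin B1, had 76.7, 119 and 79.5 CPM in high cultures, against 394 and 347 CPM in low cultures. Aunip, an Aurora A interacting protein, fell by 1.99, and Rcc1, the nucleotide exchange factor of Ran, by 1.99. Nup93, a nuclear pore component, had 19.6, 20.7 and 12.02 CPM in high cultures, against 97.6 and 77.9 CPM in low cultures.

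The largest falls also held transcripts that these libraries may not measure well. Rpph1, the RNA of ribonuclease P, had 15.6, 23.2 and 7.40 CPM in high cultures, against 273 and 301 CPM in low cultures, a log2 difference of -4.20 ± 0.28 (adjusted p = 7.0e-15). This RNA normally lacks a long poly-A tail while the libraries were primed with poly-T. Hmgn2, a nucleosome-binding protein, had 7.04, 9.47 and 9.25 CPM in high cultures, against 113 and 99.7 CPM in low cultures, and has many near-identical pseudogenes. Hist1h1e, a linker histone gene whose transcripts also usually lack poly-A, was among the largest rises with 149, 178 and 149 CPM in high cultures, against 16.9 and 17.1 CPM in low cultures. Whether these values follow transcription was not tested. Calm3 and Nrgn, which encode calmodulin and a calmodulin-binding protein, fell, Calm3 to 19.6, 24.95 and 28.7 CPM in high cultures, against 114 and 106 CPM in low cultures, and Nrgn by 2.19 on the log2 scale; Snapc5, of the small nuclear RNA activating complex, fell by 1.89.

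Cell death genes gave calls in both directions. Of 15 p53 targets 4 rose and 3 fell, with 2 rises without either low library or without high replicate 1. Of 13 Bcl2 family genes 4 rose and 3 fell. The rises came to 2 without high replicate 1, high replicate 2 or low replicate 2, and to 1 without low replicate 1 or with the second title number as a term. Phlda3, a p53-induced inhibitor of Akt, had 3.91, 8.61 and 14.8 CPM in high cultures, against 42.5 and 40.1 CPM in low cultures. Bax, a pore-forming inducer of death, had 177, 196 and 172 CPM in high cultures, against 397 and 368 CPM in low cultures. Bbc3, the BH3-only gene of PUMA, rose and had 77.5, 112 and 107 CPM in high cultures, against 32.5 and 44.2 CPM in low cultures. Among protectors, Bcl2 had 354, 332 and 412 CPM in high cultures, against 172 and 162 CPM in low cultures while Bcl2l1 had 72.8, 84.3 and 93.4 CPM in high cultures, against 239 and 208 CPM in low cultures, so the 2 genes changed in opposite directions, by 1.13 ± 0.17 and -1.42 ± 0.20 (SE). Fas, the death receptor, had 64.9, 48.2 and 44.4 CPM in high cultures, against 17.5 and 18.3 CPM in low cultures.

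**Figure D3:**
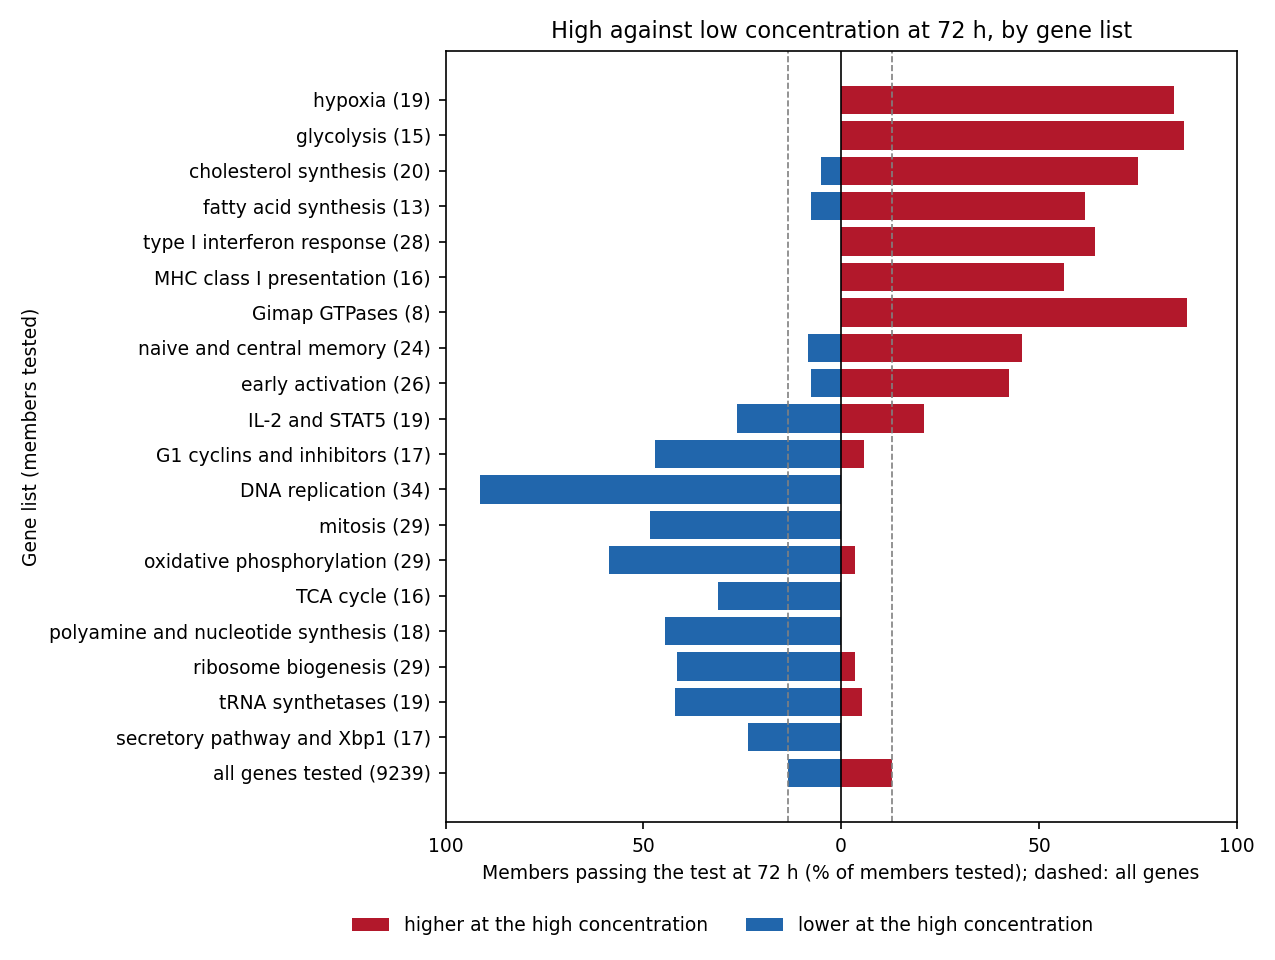
Share of tested members of 19 gene lists and of all genes that passed the test at 72 h (% of members tested, number tested in brackets); red bars to the right were higher and blue bars to the left lower in high cultures, and dashed lines mark all genes. Hypoxia (16 of 19) and glycolysis (13 of 15) reach far right and DNA replication (31 of 34) far left.

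Interferon-induced genes were higher in high cultures. Of 28 type I interferon response genes tested, 18 rose and none fell (median 1.69); the count was 12 without low replicate 1, 11 without low replicate 2 and 12 with the second title number as a term. Irf7, a transcription factor that amplifies the response, rose by 2.27 ± 0.28 on the log2 scale (SE), and Isg20, an exonuclease, had 135, 146 and 146 CPM in high cultures, against 38.2 and 42.5 CPM in low cultures. Rtp4, an interferon-induced chaperone, had 79.02, 57.7 and 53.6 CPM in high cultures, against 3.75 and 2.36 CPM in low cultures, a log2 difference of 4.35 ± 0.49 (adjusted p = 9.1e-10). Isg15, a ubiquitin-like modifier, had 37.6, 33.6 and 44.4 CPM in high cultures, against 8.13 and 5.31 CPM in low cultures. Oas3, a sensor of double-stranded RNA, had 65.7, 80.9 and 71.2 CPM in high cultures, against 11.9 and 12.98 CPM in low cultures. Ifit1, which binds foreign RNA caps, had 69 counts over the high libraries and 2 over the low libraries, a ratio of 30.3 (95% interval 8.06 to 255, covering counting error only).

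The windows of Oas3 and Isg15 are shown because they hold the interferon-stimulated element, searched on both strands as GAAA, any 2 bases and GAAA again, and marked in capitals. They lie at chr5:120777610-120777909, minus strand (Oas3) and chr4:156200769-156201068, minus strand (Isg15) in GRCm38.p6, and come from RefSeq.
Oas3: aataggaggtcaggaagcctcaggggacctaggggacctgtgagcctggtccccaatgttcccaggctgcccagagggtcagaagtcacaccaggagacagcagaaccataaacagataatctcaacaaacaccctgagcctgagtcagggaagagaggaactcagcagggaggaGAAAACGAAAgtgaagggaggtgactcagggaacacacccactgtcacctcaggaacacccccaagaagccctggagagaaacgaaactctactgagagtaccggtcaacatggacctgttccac
Isg15: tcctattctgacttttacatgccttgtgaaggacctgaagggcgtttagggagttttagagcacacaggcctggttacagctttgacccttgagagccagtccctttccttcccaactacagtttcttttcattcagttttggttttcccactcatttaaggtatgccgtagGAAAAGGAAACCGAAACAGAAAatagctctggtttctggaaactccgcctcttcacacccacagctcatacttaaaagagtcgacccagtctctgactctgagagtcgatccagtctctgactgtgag
The Oas3 window holds 1 match 75 bases before the start, and the Isg15 window holds 3 overlapping matches that begin 78, 72 and 66 bases before it. Of 20 interferon response genes with a promoter in the table, 12 (60%) held a match, against 270 of the 7098 genes tested that had a promoter there (3.8%).

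Many antigen presentation and Gimap genes were higher as well. Of 16 MHC class I presentation genes 9 rose and none fell (median 0.62). H2-K1, a classical class I heavy chain, had 1899, 2302 and 2007 CPM in high cultures, against 701 and 793 CPM in low cultures, a log2 difference of 1.47 ± 0.16 (adjusted p = 5.0e-10). H2-D1 had 2130.4, 2563 and 2354 CPM in high cultures, against 1132 and 1231 CPM in low cultures, and H2-T23, which encodes the non-classical Qa-1, had 485, 558 and 482 CPM in high cultures, against 113 and 106 CPM in low cultures. Class I genes are close in sequence, so counts may be shared among them. Tap1, a peptide transporter subunit, and Psmb9, an immunoproteasome subunit, rose by 0.93 and 0.70, though Psmb9 was not called without low replicate 2. Of 12 interferon-induced GTPases 4 rose and none fell (median 0.91), but only 2 rose without low replicate 1 and 2 with the second title number as a term. Of 8 Gimap genes, GTPases of lymphocyte survival, 7 rose and none fell (median 1.08). Gimap7 had 237, 245 and 277 CPM in high cultures, against 54.4 and 54.3 CPM in low cultures, and Gimap6 had 594, 509 and 599 CPM in high cultures, against 296 and 282 CPM in low cultures.

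Of 24 naive and central memory genes, a list of lymph node homing and quiescence, 11 rose, 2 fell and 11 did not pass (median 0.68); 1 fell without low replicate 1 or without high replicate 1. S1pr1, needed for exit from lymphoid organs, had 113, 132 and 137 CPM in high cultures, against 40.03 and 53.1 CPM in low cultures, a log2 difference of 1.45 ± 0.24 (adjusted p = 8.6e-06). The high libraries were all above the low ones, and the mean of naive cells was 264 CPM. Klf2, a regulator of S1pr1, had 207, 297 and 229 CPM in high cultures, against 127 and 122 CPM in low cultures. Klf2 did not pass with the second title number as a term. Bach2, a repressor of effector genes, had 68.8, 63.7 and 53.6 CPM in high cultures, against 21.9 and 31.9 CPM in low cultures, and Dapl1, a gene of naive and memory T cells, had 218, 193 and 237 CPM in high cultures, against 67.5 and 69.02 CPM in low cultures. Other genes of the same list did not pass: Ccr7 had 690.1, 689 and 744 CPM in high cultures, against 613 and 617 CPM in low cultures, Tcf7 had 109.5, 118 and 121 CPM in high cultures, against 124 and 103 CPM in low cultures and Il7r had 35.2, 12.9 and 23.1 CPM in high cultures, against 12.5 and 10.03 CPM in low cultures. Members of this list thus included rises, falls and genes that did not pass.

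Of 20 effector genes 6 rose and 3 fell; the falls are 15% of the list, near the 13.5% over all genes, and came to 1 without low replicate 2. Anxa2, a membrane-binding annexin, had 441, 539.5 and 454 CPM in high cultures, against 129 and 129 CPM in low cultures, and Ahnak, a scaffold protein, had 80.6, 65.4 and 57.3 CPM in high cultures, against 15.01 and 20.1 CPM in low cultures. Lgals3, galectin 3, fell and had 28.2, 29.3 and 20.3 CPM in high cultures, against 80.7 and 108 CPM in low cultures. Cd44, a marker of antigen experience, had 19.6, 12.9 and 18.5 CPM in high cultures, against 10.01 and 12.4 CPM in low cultures, a log2 difference of 0.60 ± 0.40 that did not pass (adjusted p = 0.27).

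Of 26 early activation genes 11 rose, 2 fell and 13 did not pass (median 0.83), with 5 rises without low replicate 2. Cd69, an early activation receptor that retains cells in tissue, had 43.03, 49.05 and 49.9 CPM in high cultures, against 13.8 and 21.8 CPM in low cultures, and Nr4a1, a nuclear receptor induced by T cell receptor signals, had 77.5, 104 and 117 CPM in high cultures, against 33.1 and 34.8 CPM in low cultures. Tnfaip3, the A20 brake on NF-κB, had 39.1, 30.1 and 36.1 CPM in high cultures, against 2.50 and 2.95 CPM in low cultures, and Fos, of the AP-1 complex, had 62.6, 68.8 and 59.2 CPM in high cultures, against 11.3 and 7.67 CPM in low cultures. Jund, another AP-1 member, fell and had 107, 154 and 157 CPM in high cultures, against 356 and 406 CPM in low cultures. Zbtb32, a transcriptional repressor, was among the 15 largest falls with 2.35, 1.72 and 6.47 CPM in high cultures, against 16.9 and 15.3 CPM in low cultures. Among T cell receptor complex and proximal signalling genes 7 of 20 rose and 2 fell, with 3 and 4 rises without low replicate 1 and low replicate 2, and 1 fall without low replicate 1 or with the second title number as a term. Cd5, which dampens receptor signals, had 462, 528 and 450.4 CPM in high cultures, against 253 and 321 CPM in low cultures, a rise not called without low replicate 1, while Thy1, a surface glycoprotein of T cells, had 1430.2, 1197 and 1323 CPM in high cultures, against 2789 and 2759 CPM in low cultures and fell by 1.07. Of 7 coinhibitory receptors 2 rose (Lag3 and Btla) and 1 fell (Pdcd1), but Btla and Pdcd1 were not called without low replicate 1 or with the second title number as a term, nor Lag3 without low replicate 2, nor Btla without high replicate 1.

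Targets of interleukin 2 and STAT5 did not move together. Of 19 tested, 4 rose and 5 fell (median -0.06), with 2 rises without low replicate 2. Socs2 and Cish, feedback inhibitors induced by STAT5, had 277, 284 and 261 CPM in high cultures, against 607 and 599 CPM in low cultures for Socs2 and 271, 344 and 266 CPM in high cultures, against 665 and 635 CPM in low cultures for Cish. Both fell, by -1.14 ± 0.15 and -1.14 ± 0.20 on the log2 scale (SE; adjusted p = 9.6e-08 and 1.7e-05). Il2ra, the high-affinity receptor chain, had 177, 158 and 193 CPM in high cultures, against 351 and 293 CPM in low cultures, a fall of 0.87 that was not called without low replicate 1. Pim1 and Pim2, survival kinases, rose: Pim1 had 613, 545 and 668 CPM in high cultures, against 221 and 306 CPM in low cultures and Pim2 had 247, 262 and 306 CPM in high cultures, against 132 and 116 CPM in low cultures. Il2 itself had 18.00, 18.9 and 14.8 CPM in high cultures, against 10.6 and 5.90 CPM in low cultures, and its log2 difference of 1.07 ± 0.44 did not pass (adjusted p = 0.065). Il2rb had 153, 222 and 193 CPM in high cultures, against 231 and 229 CPM in low cultures and did not pass either (adjusted p = 0.32). Il2, but not Il2rb, was called with no low-count filter, with DESeq2 and with the 5 compared libraries alone.

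Of 13 interleukin 6 and STAT3 genes 1 fell (Il21r, at -0.93) and none rose. The receptor subunits Il6ra and Il6st had log2 differences of 0.01 ± 0.24 and 0.66 ± 0.27 (SE), neither past the test. Of 7 helper cytokine genes tested, 1 fell and none rose, where 13.5% of all genes fell. The fall was that of Tgfb1, with 43.8, 34.4 and 47.2 CPM in high cultures, against 119 and 95.6 CPM in low cultures. In the TNF family 4 of 18 genes rose and 4 fell. Lta, lymphotoxin alpha, had 329, 355 and 306 CPM in high cultures, against 1378 and 1444 CPM in low cultures, a log2 difference of -2.09 ± 0.15 (adjusted p = 1.3e-15) with no overlap between groups. Tnf fell by 0.89, while the costimulatory receptors Tnfrsf9 and Tnfrsf4 rose by 2.08 and 0.69; without low replicate 1, 2 of the family rose and 2 fell, without high replicate 1, 2 fell, and without low replicate 2, 1 rose and 2 fell, where Tnfrsf4 was among the calls lost.

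Among 9 chemokine and receptor genes 1 rose and 2 fell, where 13% of all genes rose and 13.5% fell. Ccl5, a chemokine of effector cells, had 65.7, 91.2 and 69.4 CPM in high cultures, against 3.13 and 3.54 CPM in low cultures, and Ccr6 and Ccr4, receptors of Th17 and Th2 or regulatory cells, fell to 0.782, 3.44 and 2.77 CPM and 2.35, 5.16 and 5.55 CPM in high cultures, against 15.6 and 11.2 CPM and 11.9 and 15.9 CPM in low cultures. Ccr4 was not called without low replicate 2. Of 9 integrin genes 2 rose and none fell. Itga7, a laminin receptor chain, had 195, 199 and 192 CPM in high cultures, against 0.625 and 1.77 CPM in low cultures, a log2 difference of 7.24 ± 0.53 (adjusted p = 7.5e-15), while Itgb3 rose by 0.94. Of 11 granule genes 4 rose and 1 fell, with 2 rises without low replicate 1 or with the second title number as a term. Gzmb, granzyme B, had 28.9, 35.3 and 17.6 CPM in high cultures, against 1.25 and 2.95 CPM in low cultures. Ctsw, a granule protease, fell to 10.2, 7.74 and 11.1 CPM in high cultures, against 21.3 and 18.3 CPM in low cultures, a call that was lost in 4 of the 5 fits that left out a library. Matk, a kinase that inhibits Src family members, had 117, 125 and 107 CPM in high cultures, against 15.01 and 5.90 CPM in low cultures.

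Lineage transcription factors gave 4 rises and 2 falls among 17, with 1 fall with the second title number as a term or without either low library, high replicate 2 or high replicate 3. The 2 falls are near the 13.5% over all genes. Foxp3, the factor of regulatory T cells, had 3.13, 1.72 and 8.32 CPM in high cultures, against 46.3 and 18.3 CPM in low cultures, a log2 difference of -2.88 ± 0.48 (adjusted p = 7.6e-06). Each high library was below both low libraries, but the 2 low libraries also stood apart from each other. Runx3 rose and had 153, 202 and 176 CPM in high cultures, against 55.04 and 83.2 CPM in low cultures, and Irf4, induced by receptor signals, had 78.2, 95.5 and 79.5 CPM in high cultures, against 47.5 and 43.7 CPM in low cultures. Gata3, of the Th2 lineage, rose by 0.88 but was not called with the second title number as a term or without low replicate 1. Irf8 had 18.00, 20.7 and 22.2 CPM in high cultures, against 26.9 and 19.5 CPM in low cultures and Bcl6 had 6.26, 8.61 and 3.70 CPM in high cultures, against 6.25 and 2.95 CPM in low cultures, and neither passed.

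The sorted population carried its own markers. All 9 markers of CD4 T cells found in the table were tested, and their summed level was 5203 to 5541 CPM in high cultures and 6113 to 6184 CPM in low cultures. Cd4 had 699, 693 and 756 CPM in high cultures, against 489.7 and 503 CPM in low cultures, and 3 of the 9 rose while 1 (Thy1) fell; the rise of Cd4 was not called without low replicate 1 or without low replicate 2. Of the B cell list, 12 of 15 markers were in the table, summing to 108 to 140 CPM in high cultures and 49.4 to 61.3 CPM in low cultures. Ms4a1, Cd79a, Ebf1, Pax5 and Blnk were at 0 in all 5 libraries. The higher sum came from H2-Ab1, an MHC class II chain, with 122, 88.6 and 98.9 CPM in high cultures, against 6.88 and 8.26 CPM in low cultures, whereas Cd74, the class II invariant chain, fell and had 6.26, 5.16 and 9.25 CPM in high cultures, against 17.5 and 22.4 CPM in low cultures. H2-Aa, another class II chain, had 3 counts over the high libraries and 33 over the low libraries. Its log2 difference of -3.45 did not pass (adjusted p = 0.19). It was called with no low-count filter and with the 5 compared libraries alone. Of the CD8 and NK cell list all 10 were in the table, summing to 33.6 to 38.7 CPM in high cultures and 15.3 to 17.1 CPM in low cultures. Cd8b1 made up most of that and rose to 37.6, 31.8 and 37.9 CPM in high cultures, against 15.6 and 14.2 CPM in low cultures, while Cd8a, Ncr1, Klrb1c, Klrk1, Klra8 and Klre1 were at 0. Myeloid markers summed to 178 to 289 CPM in high cultures and 217 to 256 CPM in low cultures, mostly from Cst3. Of 3 myeloid markers tested 1 rose, Csf1r, with 20 counts over the high libraries and 0 over the low libraries (adjusted p = 0.036), a call lost with the second title number as a term, with DESeq2 and without any 1 library but high replicate 2. The markers at 0 were Lyz1, Itgax, Mpeg1 and Csf3r. Red cell and platelet markers summed to 1.84 to 5.33 CPM in high cultures and 0 to 1.98 CPM in low cultures, and 12 of 13 were at 0. The part of other cells in the interferon and MHC results was not tested.

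The difference between concentrations was compared with that at earlier times in the same experiment. At 18 h, 173 genes (1.87%) differed, 106 higher (1.15%) and 67 lower (0.725%) in high cultures. At 30 h, 791 genes (8.56%) differed, 428 higher (4.63%) and 363 lower (3.93%). At 48 h, 2397 genes (25.9%) differed, 1286 higher (13.9%) and 1111 lower (12%). All libraries at 18 h have second number 1 and all at 30 h have number 2, while at 48 h the 3 high libraries have number 2 and 2 of the 3 low libraries have number 1. Of the 1197 genes higher at 72 h, 510 were called higher at 48 h (42.6% of these and 39.7% of the 1286 genes higher at 48 h) and 28 were called lower. Of the 1250 genes lower at 72 h, 390 were called lower at 48 h (31.2% of these and 35.1% of the 1111 genes lower at 48 h) and 68 were called higher. At 18 h only 6 of the 1197 genes and 16 of the 1250 genes were called in the same direction, while 14 and 66 were called in the opposite one. The difference itself changed between 48 and 72 h for 1161 genes (12.6%), of which 432 (4.68%) had a higher and 729 (7.89%) a lower difference at 72 h. Between 18 and 72 h it changed for 1508 genes (16.3%), with 656 higher (7.1%) and 852 lower (9.22%). These counts rest on few libraries and on the second title number. With the number as a term the difference changed from 48 to 72 h for 296 genes, 268 of them among the 1161, and from 18 to 72 h for 1177 genes, 1069 of them among the 1508. Without low replicate 1 the change from 48 h was called for 556 genes and without low replicate 2 for 668. Changes from 48 h named below were also called with the number as a term unless said otherwise.

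Most low-oxygen and glucose genes were already higher in high cultures at 48 h, and by 72 h the difference had widened for some and narrowed for others. The Egln3 difference was -0.85 ± 0.43, 0.54 ± 0.25, 4.58 ± 0.22 and 4.84 ± 0.30 at 18, 30, 48 and 72 h (SE), and that of Slc2a3 was -0.04 ± 0.27, 0.72 ± 0.20, 3.81 ± 0.19 and 4.13 ± 0.23. Ankrd37 and Aldoa widened between 48 and 72 h, by 1.92 ± 0.31 and 1.31 ± 0.21 (adjusted p = 1.7e-05 and 1.2e-05). Of the hypoxia list 17 of 19 genes were already higher at 48 h, where the median was 2.07, and 6 of 19 at 30 h. The difference was higher at 72 h than at 48 h for 4 of these 19 and lower for 2. With the second title number as a term it was higher for 4 and lower for 0. In the glycolysis list it was higher for 4 of 15 and lower for 1, or 2 and 0 with that term. It changed for 0 of 5 glucose and lactate transporters, where 4.68% of all genes were higher and 7.89% lower. Ndrg1 and Mt1 instead narrowed, by -1.10 ± 0.29 and -1.69 ± 0.39, and neither change was called with the second title number as a term or without low replicate 2. Bhlhe40 differed by 0.59 ± 0.20 at 48 h and by 2.87 ± 0.28 at 72 h.

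Cell cycle genes reversed direction over the time course. Of the 34 replication genes 22 were higher in high cultures at 18 h (median 0.82), 1 was higher at 30 h (median 0.25), 9 were lower at 48 h (median -0.13) and 31 were lower at 72 h (median -1.18). The difference was lower at 72 h than at 48 h for 24 of the 34 and higher for none, but with the second title number as a term it was lower for 9 of the 34. Against 18 h it was lower for 33 of the 34, and for 32 with that term. Of 29 mitosis genes 9 were higher in high cultures at 18 h (median 1.17) and 14 were lower at 72 h. Rrm1 had a mean of 158 CPM in high cultures and 78.1 CPM in low cultures at 18 h, and 137 CPM in high cultures and 402 CPM in low cultures at 72 h. The Birc5 difference was 1.61 ± 0.23 at 18 h and -1.38 ± 0.15 at 72 h (SE), a change of -2.99 ± 0.28 (adjusted p = 1.7e-11).

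Several cytokine response genes turned between 48 and 72 h. Socs2 was higher in high cultures at 48 h, by 1.44 ± 0.14, and lower at 72 h, by -1.14 ± 0.15 (SE), a change of -2.58 ± 0.20 (adjusted p = 6.5e-13). Its mean level was 667 CPM in high cultures and 245 CPM in low cultures at 48 h, and 274 CPM in high cultures and 603 CPM in low cultures at 72 h. Il2ra changed by -1.48 ± 0.29 (adjusted p = 3.0e-04) and Cish by -1.78 ± 0.27 (adjusted p = 5.1e-06), each from a positive difference at 48 h to a negative one. Of 19 interleukin 2 and STAT5 genes 12 were higher at 48 h and 4 at 72 h, and the difference was lower at 72 h than at 48 h for 8 of them, or for 7 with the second title number as a term. Il2 ran the other way, with a difference of -2.54 ± 0.28 at 48 h and 1.07 ± 0.44 at 72 h. The Lta difference was -0.36 ± 0.13 at 48 h and -2.09 ± 0.15 at 72 h, a change of -1.74 ± 0.20 (adjusted p = 2.8e-08). Irf8, lower in high cultures at 48 h by -2.25 ± 0.20, differed by -0.19 ± 0.30 at 72 h, when both groups held little of it. Cd69, Nr4a1 and Irf4 had negative differences at 48 h, of -0.62, -0.54 and -0.29, and positive ones at 72 h.

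**Figure D4:**
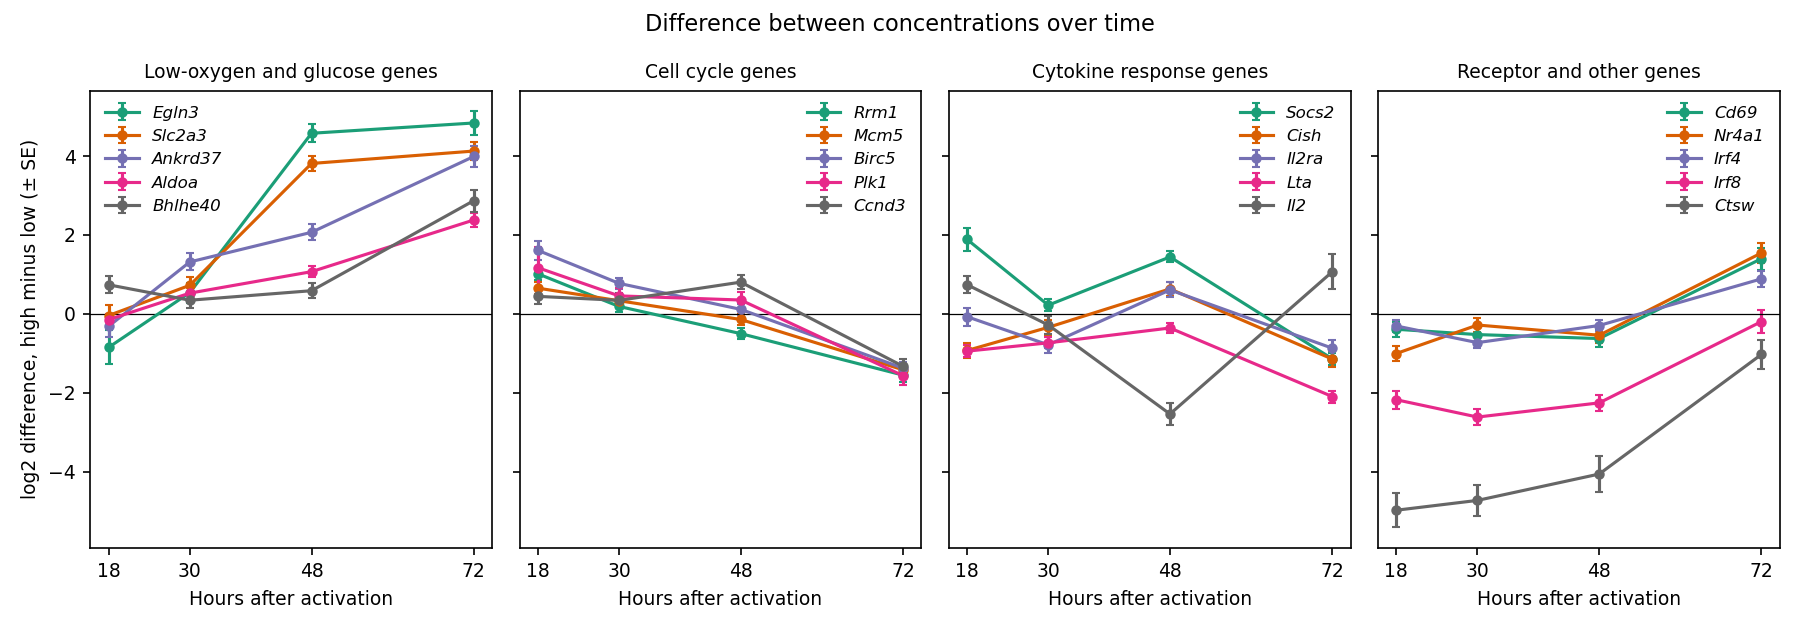
Log2 difference, high minus low (y axis, with SE bars from the fit), against hours after activation (x axis) for 20 genes in 4 panels. The 5 low-oxygen and glucose genes have their highest difference at 72 h, cell cycle genes cross from above to below 0, Socs2, Cish and Il2ra drop below 0 at 72 h, and Cd69, Nr4a1 and Irf4 move above it.

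Cells from cultures started at 250000 cells per ml, between the other 2 starting concentrations, were sorted by CD62L at 72 h, so sorting and concentration differ together and their levels are given as a description without a test. For the 15 largest rises, the means of both sorted groups lay between those of high and low cultures for all 15 genes. For the 15 largest falls this held for 13 genes in CD62L positive cells, all but Phlda3 and Lta, and for 14 in CD62L negative cells, all but Lta. These genes were chosen as extremes between high and low cultures, which by itself favours a mean in between. The share over all genes was not counted, so these counts do not show a graded response to concentration. Egln3 averaged 141 CPM in high cultures, 41.1 CPM in CD62L positive cells, 31.1 CPM in CD62L negative cells and 4.88 CPM in low cultures. Lta averaged 330.3 CPM in high cultures, 154 CPM in CD62L positive cells, 240.3 CPM in CD62L negative cells and 1411 CPM in low cultures. Isg15 averaged 38.5 CPM in high cultures and was close to the low cultures, at 6.72 CPM, in both sorted groups, with 8.08 and 7.84 CPM.

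**Figure D5:**
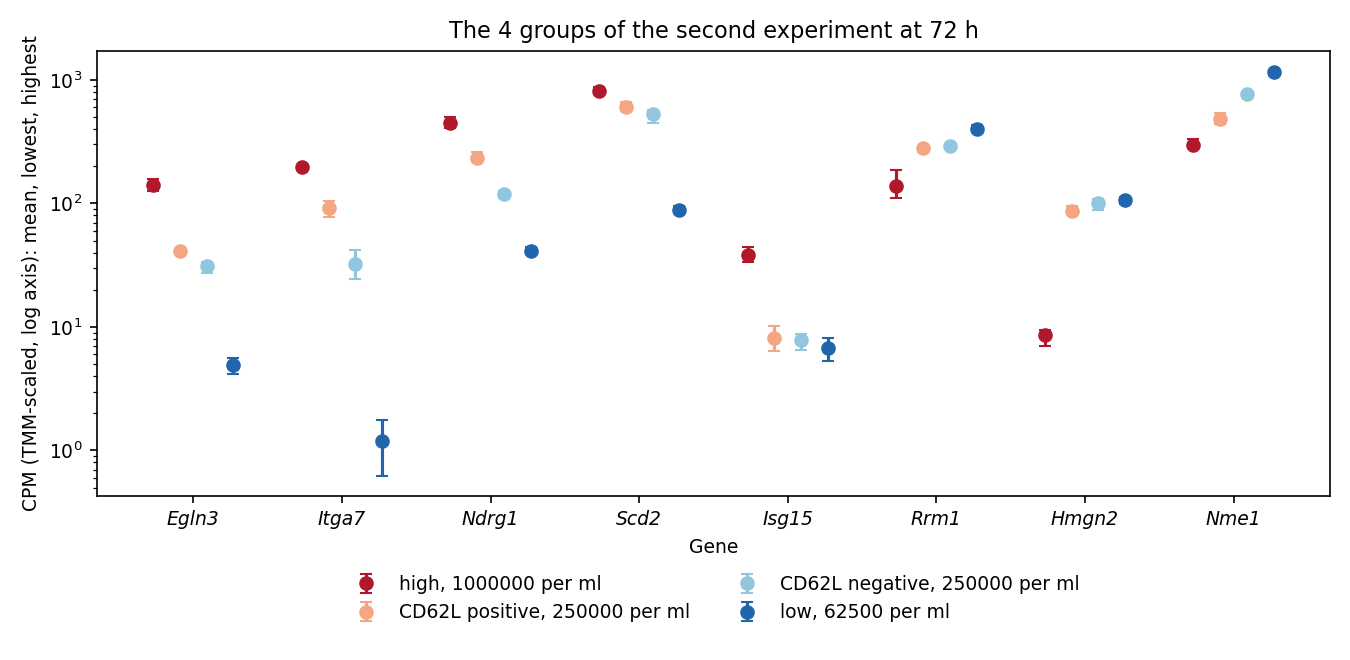
CPM (TMM-scaled, log axis) of 8 genes in the 4 groups of the experiment at 72 h; points are group means and bars run from the lowest to the highest library. Sorted cells started at 250000 cells per ml lie between high and low cultures for these genes, near the low cultures for Isg15 and Hmgn2.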

How the data were processed

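Per the labels' protocols, messenger RNA of sorted cells was reverse transcribed from poly-T primers that hold a sample index and a molecular identifier, then amplified linearly by in vitro transcription, so reads come from the 3′ ends of transcripts. Tools named in the submitters' processing notes are STAR 2.5.2b, HISAT 0.1.5 and HTSeq 0.9.1, bcl2fastq 2.17.1.14 and FastQC 0.11.7, in no stated order, and the build is mm9. No source used here states which aligner was used, the annotation, the strand setting or whether identifiers were collapsed. The deposited values are raw counts per gene symbol. Without a known strand setting, reads of overlapping antisense genes cannot be told apart.

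All 38 libraries (13 groups) of the second experiment were fitted together in edgeR 4.0.16 (R 4.3.3): TMM, filterByExpr with minimum count 10, robust quasi-likelihood, 25 residual degrees of freedom, Benjamini-Hochberg adjustment over 9239 of 24421 symbols, of which 8924 had 0 counts everywhere. Common dispersion was 0.0268; same-group pairs at 72 h differed by 1.98 to 5.56 times the variance of counting alone. SE is the log2 difference over the root of F. Changes between times were tested as differences of differences. Alternatives were other scaling (also without ribosomal protein genes), no filter, DESeq2 1.42.0, the compared groups alone, a replicate block, the second title number as a term, and leaving out each 72 h library. The procedure was tested on simulated data.

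Named genes were, among genes at or above the median average log CPM of 4.82 that passed without overlap, the 15 largest rises and falls; up to 6 genes of smallest p per list; the 8 of smallest p for each changed difference; and a preset group. The members and lists were chosen with earlier results of these data known. Promoters were matched by symbol to RefSeq GRCm38.p6, without those of a single chromosome. A gene with several promoters counted as holding a match if any of them did. The first experiment was not used here. A few genes that these rules name are not reported here.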

Additional observations from a re-analysis of the deposited data

Results flagged for a closer look

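The difference between high and low cultures changed from 48 to 72 h for 1161 genes and from 18 to 72 h for 1508 genes, each by a test of the change itself (edgeR's quasi-likelihood test, adjusted over 9239 genes). At 48 h the second title number runs mostly against the direction it has at 72 h. With the number as a term, the change from 48 h was called for 296 genes and the change from 18 h for 1177. Without low replicate 1 and low replicate 2 the change from 48 h was called for 556 and 668 genes.

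Among a preset group of genes and those of smallest p, the log2 difference was lower at 72 h than at 48 h for Hmgn2 (change -3.33), Socs2 (-2.58), Mxd3 (-2.41), Drc1 (-2.26), Kbtbd11 (-2.16) and Foxp3 (-2.10). It was also lower for Thy1 (-1.84), Isg15 (-1.76), Lta (-1.74), Il2rb (-1.71), Mt1 (-1.69) and Il2ra (-1.48), and by less for Ndrg1 (-1.10) and Il6ra (-1.03). Kbtbd11 and Drc1, not described above, differed by 2.22 ± 0.15 and 1.85 ± 0.18 at 48 h and by 0.06 ± 0.15 and -0.41 ± 0.18 at 72 h (SE).

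The difference was higher at 72 h than at 48 h for Il2 (change 3.60), Ctsw (3.03), Gadd45b (2.57), Cd44 (2.11), Irf8 (2.06), Cd69 (2.02), Irf4 (1.18) and Gata3 (0.97). Gadd45b, a stress-induced growth arrest gene, had 83.7, 78.3 and 94.3 CPM in high cultures, against 43.8 and 45.4 CPM in low cultures at 72 h, with differences of -1.64 ± 0.15 at 48 h and 0.94 ± 0.19 at 72 h (SE). Ctsw was lower in high cultures by -4.98 ± 0.43, -4.73 ± 0.39 and -4.06 ± 0.45 at 18, 30 and 48 h.

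Between 18 and 72 h the difference widened upwards for Ankrd37 (change 4.30), Slc2a3 (4.17), 2410006H16Rik (2.82) and Aldoa (2.52), and moved downwards for Rpph1 (-4.91), Birc5 (-2.99), Rrm1 (-2.57) and Nme1 (-1.98). 2410006H16Rik had 2614, 2229.6 and 2279.5 CPM in high cultures, against 375 and 391 CPM in low cultures at 72 h.

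Outside that group, the changes from 48 h of Cish (-1.78), Ankrd37 (1.92), Aldoa (1.31), Nr4a1 (2.09) and Bhlhe40 (2.28) are given in the report.

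Of the 22 changes from 48 h in the group, 15 were also called with the second title number as a term, as were all 8 changes from 18 h. Those 8, and part of the 22, were chosen for small p in these same libraries, which made such calls likely. The counts therefore do not measure how the number affects these changes. Over all genes, 268 of the 1161 changes from 48 h and 1069 of the 1508 from 18 h were called with the term. The 7 that were not are those of Ctsw, Foxp3, Gata3, Il6ra, Isg15, Mt1 and Ndrg1. Those of Foxp3, Gata3 and Il6ra were also lost without low replicate 1 and with the compared groups alone, and those of Gata3, Il6ra, Mt1 and Ndrg1 without low replicate 2. That of Foxp3 was lost without high replicate 1, without high replicate 2 and with no low-count filter, that of Gata3 without high replicate 3, that of Il6ra without high replicate 2, and that of Isg15 without any 1 of the 5 libraries, with the compared groups alone, DESeq2, no low-count filter or a replicate block.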

How the results depend on the processing

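For the 72 h comparison, calls with the second title number as a term were 1531 (728 higher, 803 lower), and for the changed difference from 48 to 72 h 296 (98 higher, 198 lower). With only the compared groups, 1044 genes had a higher difference at 72 h than at 18 h. Leaving out each 72 h library in turn gave 1421 to 2226 calls at 72 h (624 to 1066 higher, 770 to 1160 lower), 556 to 1089 changed from 48 h (172 to 406 higher, 384 to 683 lower) and 1017 to 1485 changed from 18 h (425 to 645 higher, 572 to 840 lower). The number itself was called for 1 gene with the 12 mixed libraries alone, against 45. The cause of these differences in count was not tested. Fits that left out a library or used some groups alone held fewer libraries, while the fit with the second title number as a term held all 38. Without low replicate 1, 1373 of the 2447 genes were called again, and without low replicate 2, 1399. No named gene called at 72 h, and no named change between times, reversed direction in an alternative fit. Some named genes that were not called at 72 h did change sign. Tcf7 ranged from -0.10 to 0.16 over the alternatives and Irf8 from -0.42 to 0.04. A replicate block gave 2359, 1091 and 1469 calls for the 3 comparisons. Same-numbered libraries of the 2 shared numbers correlated at -0.098 and -0.051 in their deviations from the group mean. With 2 low libraries these deviations mirror each other, so the values cannot decide whether the numbers pair libraries. The 2 low libraries set the precision, and low genes such as Ifit1 and Scd1 rest on few counts.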
